A study of Mus musculus with 6 samples.

Results

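The proteasome genes described here are the 45 rows, of 54532 in the deposited count table, whose symbol begins with Psma to Psmg and a digit, leaving out the immunoproteasome genes Psmb8, Psmb9, Psmb10, Psme1 and Psme2 and pseudogenes marked -ps. They hold 14 subunits of the 20S core, 17 subunits of the 19S cap, 7 assembly chaperones, 3 genes for other caps and inhibitors, and 4 rows that are not subunits of the common particle. RNA came from hepatocytes of 2 groups of C57BL/6 mice aged 32 to 34 weeks, all fed a high-fat diet for 26 weeks. The XCKO libraries, 3 in number, came from Xbp1ΔHep mice, in which Xbp1 is deleted in hepatocytes, and the 3 XCON libraries from Xbp1FL/FL mice. Xbp1 codes for a factor that switches on genes of the unfolded protein response. Not given in the sources used here were the Cre driver and the sex of the mice.

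The 26S proteasome degrades proteins that carry ubiquitin chains. Its 20S core is a barrel of stacked rings, with outer rings of alpha subunits that gate the entrance and inner rings of beta subunits, of which β1, β2 and β5 cut the substrate. The 19S cap binds ubiquitin chains, removes them and threads the unfolded protein into the core. In mammalian cells the subunit genes are induced together when proteasome activity falls short, through the transcription factor NRF1, encoded by Nfe2l1. In the liver the proteasome also degrades proteins that are retrieved from the endoplasmic reticulum.

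Xbp1 had 59.0, 39.3 and 67.4 CPM (read counts relative to the TMM-scaled library size) in the XCKO libraries, against 171, 294 and 319 CPM in the XCON libraries, so the libraries matched their labels. Total counts were 26477489 to 27240079 in XCKO and 23919355 to 26502456 in XCON. The proteasome genes took up 0.184% to 0.196% of the counts in XCKO and 0.170% to 0.213% in XCON. The summed level of 10 hepatocyte markers was 94200 to 128000 CPM in XCKO and 69400 to 90000 CPM in XCON, and none of the 10 was at 0. Most of this sum was Alb, which averaged 70800 CPM in XCKO and 53800 CPM in XCON. All 10 had fitted fold changes above 0, with a median log2 fold change of 0.40. The summed levels of 8 endothelial markers (410 to 863 CPM in XCKO, 531 to 556 in XCON) and 8 lymphoid markers (2.72 to 6.87 and 2.23 to 18.3 CPM) overlapped. Mitochondrial genes took up 22.8% of the counts in XCON 1 and 8.99% to 13.1% in the other libraries. The summed level of 10 macrophage markers was 405 to 1130 CPM in XCKO and 1200 to 2320 CPM in XCON. That of 6 cholangiocyte markers was 83.0 to 162 CPM in XCKO and 253 to 583 CPM in XCON. Most of this cholangiocyte sum was Spp1, which averaged 103 CPM in XCKO and 345 CPM in XCON. All 6 had fitted fold changes below 0, and 0 were called. Of 9 stellate cell markers 3 were lower in XCKO, against 4.05% of all genes tested, and the median log2 fold change of the 9 was −1.05. Their summed level was 95.8 to 240 CPM in XCKO and up to 543 CPM in XCON. These sums overlapped, as XCKO 1 lay above XCON 1. In bulk RNA, fewer cells of a type and less RNA per cell cannot be told apart, and proteasome genes are expressed in every cell type. The part of these cell types in the proteasome results was not tested. Nothing in the sample labels says that each library came from a separate mouse, and p-values therefore speak only of library-to-library spread.

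Of the 45 genes, 43 passed the filter on low counts and were tested. By the quasi-likelihood test of edgeR, Benjamini-Hochberg adjusted over all 14873 tested genes, 3 were higher in XCKO, 0 lower and 40 did not pass an adjusted p of 0.05. Those 3 are 6.98% of the members tested, against 9.27% of all genes called in either direction, 5.21% called higher and 4.05% called lower, so the share of calls was near the background. The called genes were Psmb5 and Psmb7, which encode the β5 and β2 catalytic subunits of the core, and Psmd9, an assembly chaperone of the 19S base. An unadjusted p under 0.05 was reached by 12 members, or 27.9%, all with fold changes above 0. Among all genes 29.7% reached it, counted in either direction, and a share for higher genes alone was not taken. By part, it was reached by 7 of 14 core genes, 3 of 17 cap genes and 2 of 10 chaperones and other caps. Without XCKO 3 none of the 44 then tested passed in edgeR, and 8 had an unadjusted p under 0.05. In that fit 2% of all 15475 genes tested passed, fewer than the 9.27% with all libraries. Fold changes below 0 were fitted for 5 of the 43 genes. Above 0 were 38 of 43, or 88.4%, against 46.5% of all genes tested. With library totals alone as the scaling, 20 of 43 members and 10 of 14 core genes lay above 0, against 27.1% of all genes.

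Groups that did not overlap were counted next. In 21 of the 43 genes all XCKO libraries lay above all XCON libraries, and in 0 below, against 35.7% of all tested genes in either direction, 17.6% with XCKO above and 18.1% with XCKO below. In 11 of 14 core genes, or 78.6%, XCKO lay above XCON in this sense, and in 6 of 17 cap genes, or 35.3%. These counts, and the overlap of groups in CPM given below for genes and summed levels, rest on TMM scaling. The TMM factors were 0.850 to 0.974 in XCKO and 1.086 to 1.117 in XCON, so they differed between the groups. Overlap was not counted with library totals alone, and groups that are apart with TMM may overlap there. The median log2 fold change was 0.40 over the core genes and 0.11 over the cap genes, against −0.05 over all genes. With library totals alone as the scaling, these medians became 0.12, −0.16 and −0.31, so that the core stayed above 0 and the cap turned below it, while the gap between core and cap was 0.28 against 0.29 with TMM.

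**Figure D1:**
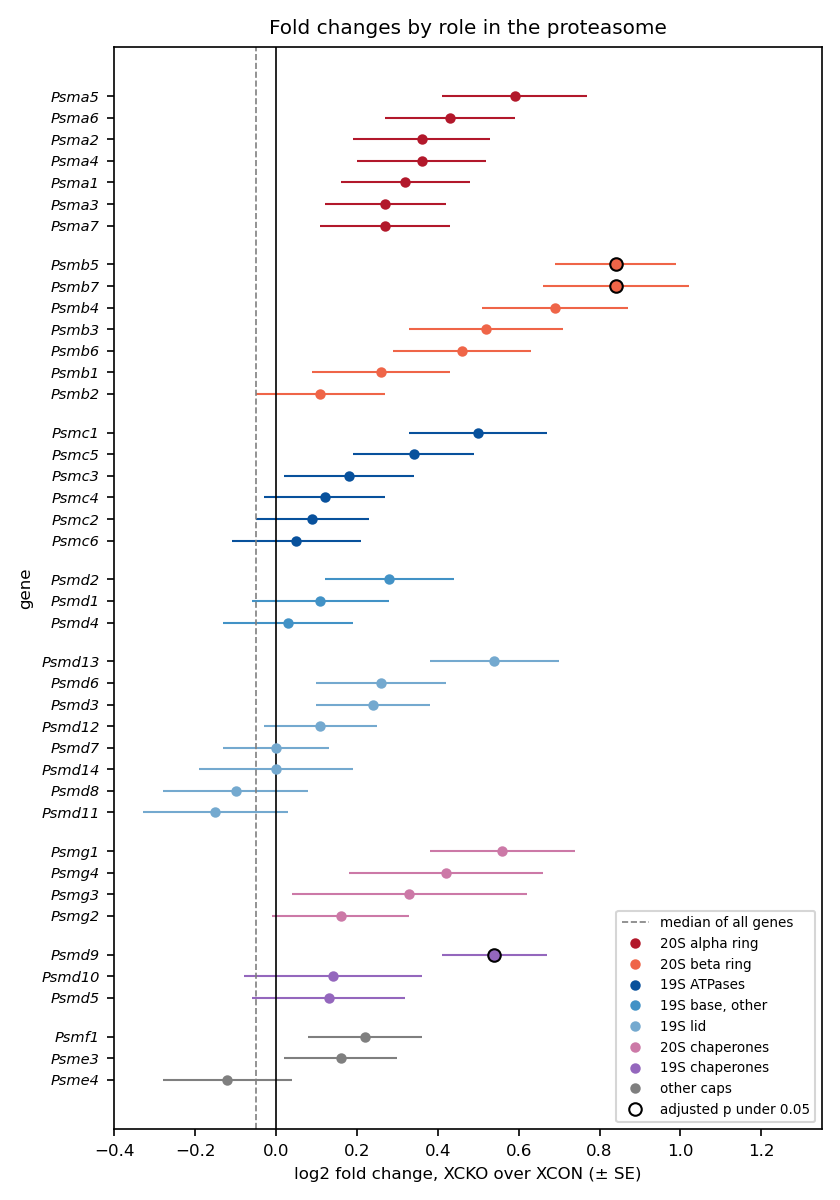
Log2 fold change, XCKO over XCON (horizontal axis), with its standard error for 41 proteasome genes, grouped by role and ordered within each group; black outlines mark an adjusted p under 0.05 and the dashed line is the median of all genes. The 14 core genes lie between 0.11 and 0.84, and the 17 cap genes between −0.15 and 0.54.

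Every core gene shared the same extreme libraries. All 14 had their highest level in XCKO 3 and their lowest in XCON 2. Among the 17 cap genes, 11 were highest in XCKO 3 and 13 lowest in XCON 2, while 4 were highest in XCON 3. XCKO 3 also had the highest summed level of 5 erythroid genes, 917 CPM, beside 405 and 77.4 CPM in XCKO 1 and 2 and 42.1 to 70.0 CPM in XCON. XCKO 3 had the lowest TMM factor (0.850) of all 6 libraries. The part of these values in the core result was not tested. Without XCKO 3 the median log2 fold change was 0.29 over the core genes and 0.07 over the cap genes, without XCON 2 it was 0.31 and 0.03, and without XCON 1 0.45 and 0.11.

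**Figure D2:**
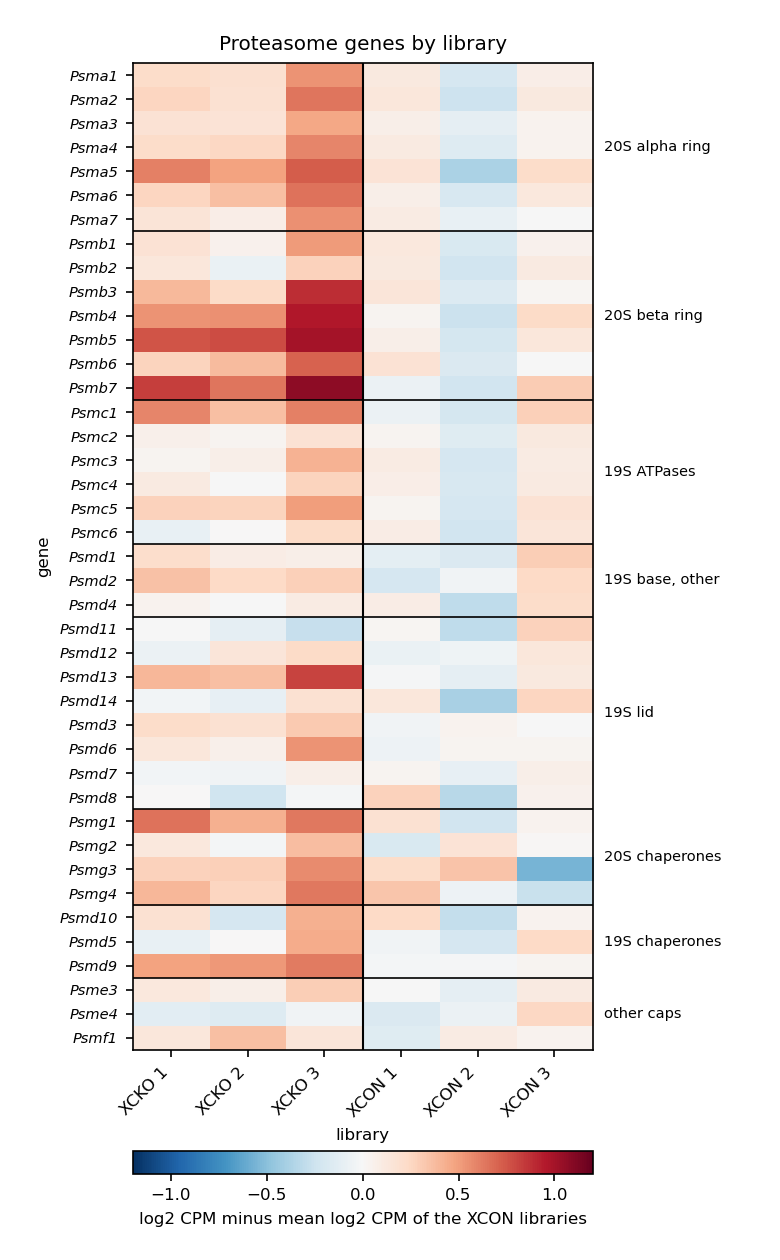
Level of 41 proteasome genes (rows, by role) in each library (columns), as log2 CPM minus the mean log2 CPM of the XCON libraries; red is higher and blue is lower. The XCKO 3 column is the reddest over the 14 core genes, and the XCON 2 column the bluest.

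The alpha ring genes, which build the gate of the core, all had positive fold changes in a narrow range, from 0.27 to 0.59 with a median of 0.36, and none of the 7 passed. Psma5 (α5) had 29.8, 27.4 and 32.3 CPM in XCKO, against 21.9, 15.0 and 22.8 CPM in XCON. The groups did not overlap, and its log2 fold change of 0.59 ± 0.18 (SE) had the smallest p of the ring (edgeR adjusted p = 0.072). In Psma1, Psma2, Psma3, Psma4 and Psma6 the groups also did not overlap, with log2 fold changes of 0.27 (Psma3) to 0.43 (Psma6). Psma7 (α4) had 50.8, 48.3 and 66.7 CPM in XCKO and 48.9, 42.9 and 45.6 CPM in XCON, which overlap.

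The beta ring genes spread more widely, from 0.11 to 0.84 with a median of 0.52, and 2 of the 7 rose. Psmb5 (ENSMUSG00000022193, mm10 chromosome 14, 54614119 to 54618022, minus strand) encodes β5, which cuts after hydrophobic residues. It had 49.8, 50.9 and 59.0 CPM in XCKO, against 31.1, 25.5 and 32.5 CPM in XCON. The lowest XCKO library thus lay above the highest XCON library by more than the range within XCON. Psmb5 averaged 53.2 ± 5.0 CPM in XCKO and 29.7 ± 3.7 CPM in XCON (SD, n = 3 each), which is 1.79-fold higher. On the log2 scale this was 0.84 ± 0.15 (SE; edgeR adjusted p = 0.017). It passed in 5 of the 6 fits that left out 1 library, and did not without XCKO 3 (adjusted p = 0.057).

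Psmb7 (ENSMUSG00000026750, chromosome 2, 38588036 to 38644087, minus strand) encodes β2, which cuts after basic residues. It had 45.9, 40.3 and 54.4 CPM in XCKO, against 24.5, 22.0 and 31.8 CPM in XCON, and the groups did not overlap. The log2 difference of 0.84 ± 0.18 (SE) passed (edgeR adjusted p = 0.028). Of the 6 fits that left out 1 library, it passed in those without XCKO 2 or XCON 3, and had adjusted p-values of 0.057 and 0.085 without XCKO 1 and XCKO 3 and of 0.084 and 0.072 without XCON 1 and XCON 2. With library totals as the scaling, Psmb5 passed (log2 fold change 0.57, adjusted p = 0.042) and Psmb7 did not (0.57, adjusted p = 0.061). On the opposite strand, Nek6 shares 405 of the 3421 exon bases of Psmb7, and without knowing whether counting used strand, reads there cannot be assigned.

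Psmb6, which encodes β1, the subunit that cuts after acidic residues, had 48.3, 52.2 and 65.5 CPM in XCKO, against 45.3, 35.5 and 40 CPM in XCON. The groups did not overlap, but its log2 fold change of 0.46 ± 0.17 (SE) did not pass (adjusted p = 0.11 in edgeR's test). Of the non-catalytic beta genes, Psmb4 (β7) had 74.8, 75.3 and 99.8 CPM in XCKO and 52.6, 42.8 and 60.1 CPM in XCON, which do not overlap, with a log2 fold change of 0.69 ± 0.18 (SE) and an adjusted p of 0.051. It passed with DESeq2, limma-voom and no filter on low counts. Psmb3 (β3) had a log2 fold change of 0.52 ± 0.19 (SE) and Psmb1 (β6) of 0.26 ± 0.17 (SE), neither past the test. Psmb2 (β4) had 34.5, 29.8 and 38 CPM in XCKO, against 34.1, 26.9 and 33.9 CPM in XCON, which overlap. Its log2 fold change, 0.11 ± 0.16 (SE), was the lowest of the core (edgeR adjusted p = 0.68), and it turned to −0.17 with library totals and −0.13 with a correction for gene length.

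The catalytic subunits are exchanged in immune cells, and in other cells under interferon, for the immunoproteasome forms. The ratio of the FPKM of each constitutive gene to that of its immunoproteasome counterpart was set beside the group labels. Psmb5 over Psmb8 was 10.5, 12 and 8.10 in XCKO, against 7.14, 4.81 and 6.32 in XCON. Psmb6 over Psmb9 was 7.68, 7.04 and 6.47 in XCKO, against 5.03, 2.89 and 4.80 in XCON. Psmb7 over Psmb10 was 0.993, 0.833 and 0.806 in XCKO, against 0.527, 0.531 and 0.764 in XCON. At none of the 3 positions did the groups overlap, but for Psmb7 over Psmb10 they lay close, at 0.806 and 0.764. The groups of Psmb5, Psmb6 and Psmb7 alone did not overlap either, as in 17.6% of all tested genes with XCKO above. No such share was taken for ratios. None of the 5 immunoproteasome genes was called, with log2 fold changes from −0.31 (Psmb9) to 0.32 (Psmb10), and in none did the groups separate. The macrophage markers, whose cells express immunoproteasome genes, had a median log2 fold change of −1.12. Of these 10 markers 1 was called lower, against 4.05% of all genes. The part of macrophages in these ratios was not tested.

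**Figure D3:**
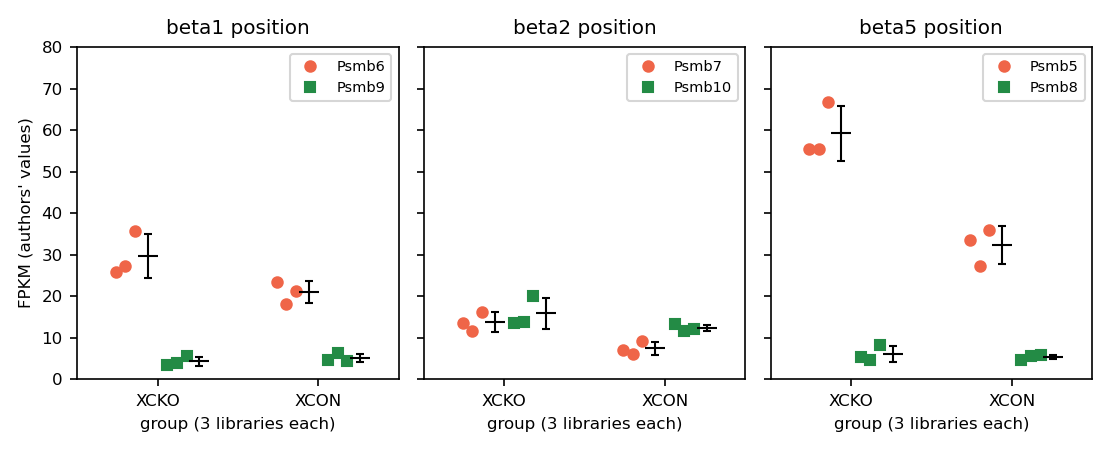
FPKM, as the authors deposited it, of the constitutive catalytic genes (circles) and their immunoproteasome counterparts (squares) at 3 positions of the core; points are libraries, and dashes with bars are group means with their SD over 3 libraries. Psmb5 averaged 59.2 FPKM in XCKO and 32.2 in XCON, and Psmb7 13.7 FPKM in XCKO and 7.45 in XCON.

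Per unit of gene length, the core genes were expressed over a range of several fold. In XCKO the highest FPKM was that of Psmb5 (59.2) and the lowest that of Psma2 (11.8), a ratio of 5.02. In XCON the highest was that of Psma6 (32.4) and the lowest that of Psmb7 (7.45), a ratio of 4.35. The median FPKM of the core genes was 22.6 in XCKO and 16.4 in XCON, and that of the cap genes 19.2 in XCKO and 17.2 in XCON.

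None of the 17 cap genes passed in edgeR's test, against 9.27% of all genes. In that test 3 of the 17, or 17.6%, had an unadjusted p under 0.05, all with fold changes above 0, against 29.7% of all genes in either direction. DESeq2 called 1 of the 17, against 17.8% of all genes. The 6 ATPases of the base, Psmc1 to Psmc6, which form the ring that unfolds substrates, had log2 fold changes from 0.05 (Psmc6) to 0.50 (Psmc1). Psmc1 (RPT2) had 69.3, 59.1 and 69.8 CPM in XCKO, against 43.8, 39.8 and 56.0 CPM in XCON. The groups did not overlap, and the adjusted p was 0.087 in edgeR's test. Psmc5 (RPT6) was the other ATPase gene whose groups did not overlap, with a log2 fold change of 0.34 ± 0.15 (SE). Psmc2, Psmc3, Psmc4 and Psmc6 overlapped, with log2 fold changes of at most 0.18.

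The base scaffold Psmd2 (RPN1), the most abundant cap gene by count, had 133, 123 and 127 CPM in XCKO, against 90.7, 101 and 123 CPM in XCON, which just fail to overlap, with a log2 fold change of 0.28 ± 0.16 (SE) and an edgeR adjusted p of 0.28. Psmd1 (RPN2) had a log2 fold change of 0.11 ± 0.17 (SE). Psmd4 (RPN10), which binds ubiquitin chains, had 54.0, 52.0 and 55.9 CPM in XCKO and 55.6, 42.3 and 60.8 CPM in XCON. Its XCKO values lay inside the range of the XCON values, and its log2 fold change was 0.03 ± 0.16 (SE).

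Of the 8 lid genes, 4 had fitted fold changes above 0 and 4 below, but those of Psmd7 and Psmd14 were 0.00 on the log2 scale. With median-of-ratios size factors 15 of the 17 cap genes lay above 0, against 13 with TMM. Psmd14 (RPN11), the enzyme that cuts ubiquitin chains off the substrate, had 27.7, 26.5 and 32.1 CPM in XCKO, against 31.1, 21.6 and 33.9 CPM in XCON. Its groups overlapped, and its standard error of 0.19 was larger than the fitted log2 fold change, whose adjusted p was 0.99. Psmd13 (RPN9) had 45.6, 44.4 and 60.7 CPM in XCKO, against 34.3, 32.0 and 37.5 CPM in XCON, the highest log2 fold change of the cap at 0.54 ± 0.16 (SE), with an adjusted p of 0.070. It passed with DESeq2 (adjusted p = 0.038), and Sirt3 on the opposite strand shares 342 of its 3377 exon bases. Psmd3 (RPN3) and Psmd6 (RPN7) had groups that did not overlap, with log2 fold changes of 0.24 and 0.26. Psmd12 (RPN5) had 0.11, and Psmd7 (RPN8) a fitted change with an adjusted p of 0.99. Psmd8 (RPN12) had a log2 fold change of −0.10 ± 0.18 (SE). Psmd11 (RPN6), the lowest of the cap, had 64, 59.6 and 53 CPM in XCKO, against 65.5, 52.1 and 77.9 CPM in XCON. Its groups overlapped, with a log2 fold change of −0.15 ± 0.18 (SE) and an edgeR adjusted p of 0.61.

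Set side by side in each library, the mean log2 CPM of the core genes minus that of the cap genes was −0.18, −0.18 and 0.01 in XCKO 1, 2 and 3, against −0.32, −0.43 and −0.45 in XCON 1, 2 and 3. This difference is taken within a library, so the scaling of libraries hardly enters it. It averaged −0.11 ± 0.11 in XCKO and −0.40 ± 0.069 in XCON (SD, n = 3 each), and the groups did not overlap. The summed counts of the core genes were 0.695, 0.710 and 0.821 times those of the cap genes in XCKO, against 0.648, 0.598 and 0.588 times in XCON. The summed core level was 718, 698 and 910 CPM in XCKO, against 611, 500 and 609 CPM in XCON. The summed cap level was 1033, 984 and 1108 CPM in XCKO, against 943, 835 and 1036 CPM in XCON, which overlap. No p is given for these scores, since subunits of 1 particle are not replicates. The gap between the 2 median log2 fold changes was 0.22 without XCKO 3 and 0.22 to 0.34 over the 6 fits that left out 1 library.

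**Figure D4:**
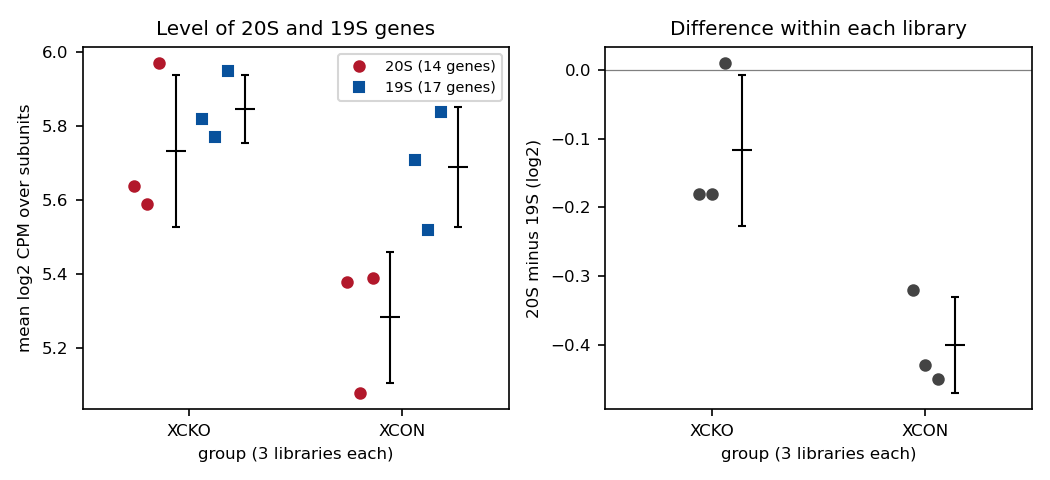
Mean log2 CPM over the 14 core and 17 cap genes in each library (left) and core minus cap within each library (right); points are libraries, and dashes with bars are group means with their SD over 3 libraries. The difference lies between −0.18 and 0.01 in XCKO and between −0.45 and −0.32 in XCON.

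Fold changes across the whole table fell with gene length. The median log2 fold change was 0.21 in the decile of shortest genes and −0.25 in the decile of longest. Core genes had a median length of 2335 bases and cap genes of 2820 bases. With a correction for gene length, the median became 0.30 over the core and 0.09 over the cap, a gap of 0.21. The same 3 of 43 members passed, and 7.31% of all genes did. Above 0 were then 34 of the 43 members, against 38 without the correction, and 48.7% of all genes. Of the 17 cap genes 11 lay above 0, against 13 without it. An unadjusted edgeR p under 0.05 was reached by 7 members, against 12 without it. The log2 fold change of Psmb5, at 899 bases the shortest core gene, became 0.59 (adjusted p = 0.040 in edgeR's test). Psmb7, at 3421 bases, kept a log2 fold change of 0.83 (adjusted p = 0.035). Psmb2 and Psma6, at 1204 and 1234 bases, had log2 fold changes of 0.11 ± 0.16 and 0.43 ± 0.16 (SE). The part of gene length in the core result beyond this correction was not tested.

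**Figure D5:**
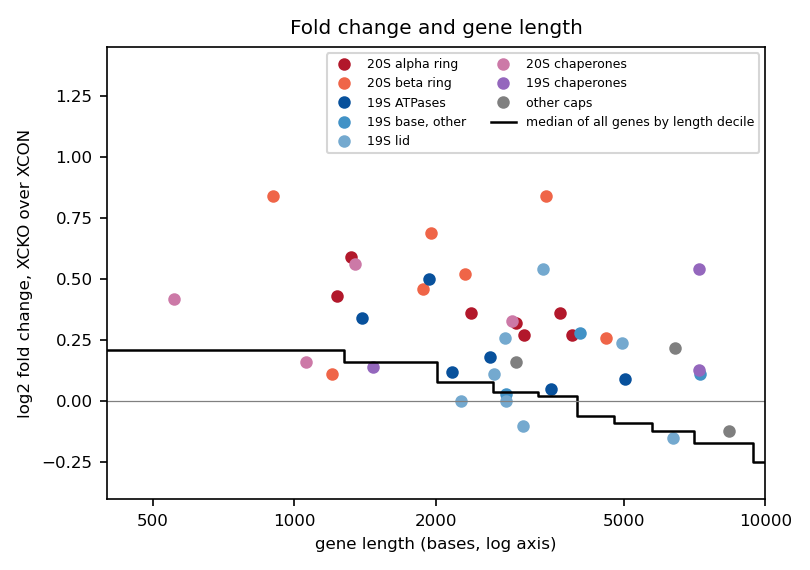
Log2 fold change, XCKO over XCON, against gene length in bases (log axis) for 41 proteasome genes coloured by role; the black line is the median of all tested genes in each length decile. The line falls from 0.21 to −0.25, and 13 of the 14 core genes had a fold change above 0 after the correction for length.

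Of the 4 chaperones of core assembly none passed, and all 4 had positive fold changes with a median of 0.38. Psmg1 (PAC1), which pairs with Psmg2 (PAC2) to seed the alpha ring, had 13.6, 11.6 and 13.4 CPM in XCKO, against 9.85, 7.37 and 8.93 CPM in XCON. The groups did not overlap, and the log2 difference was 0.56 ± 0.18 (SE; edgeR adjusted p = 0.075). Psmg2 had 0.16 ± 0.17 (SE), and Psmg3 and Psmg4 (PAC3 and PAC4) had 0.33 ± 0.29 and 0.42 ± 0.24 (SE). Psmg3 and Psmg4 were also the least abundant, at 3.93 to 6.24 CPM in the group means.

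Psmd9 (p27; ENSMUSG00000029440, chromosome 5, 123169413 to 123250131, plus strand), which helps the ATPases assemble, was the only called chaperone. It had 23.4, 24 and 25.9 CPM in XCKO, against 16.5, 16.6 and 17.2 CPM in XCON. The libraries of each group lay close together, at 24.4 ± 1.3 CPM in XCKO and 16.8 ± 0.35 CPM in XCON (SD, n = 3 each). The log2 difference was 0.54 ± 0.13 (SE; edgeR adjusted p = 0.034). It passed in none of the 6 fits that left out 1 library (adjusted p of 0.060 to 0.099), and with library totals it had 0.27 (adjusted p = 0.20). Hpd, with 150647 reads in the 6 libraries, lies within the span of Psmd9 on the other strand and shares no exon base with it. The other base chaperones, Psmd5 (S5b) and Psmd10 (gankyrin), had log2 fold changes of 0.13 ± 0.19 and 0.14 ± 0.22 (SE).

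Other regulators of the core did not pass. Psme3 (PA28γ), a nuclear cap, had 0.16 ± 0.14 (SE) and Psme4 (PA200), a cap that acts on histones, had −0.12 ± 0.16 (SE). Psmf1 (PI31), which binds the core, had 20.3, 23.7 and 20.4 CPM in XCKO, against 16.7, 19.7 and 19 CPM in XCON, which do not overlap, with a log2 fold change of 0.22 ± 0.14 (SE) that turned to −0.04 with library totals. Of the remaining rows, Psma8, the alpha subunit of the testis, had 0.737 to 1.86 CPM in XCKO and 0.513 to 0.811 CPM in XCON, and Psmb11, of the thymus, had 0 reads in every library. Psmc3ip, a recombination factor that is not a subunit of the proteasome, had 0.311 to 0.389 CPM in XCKO and 0 to 0.550 CPM in XCON. Psme2b, a close copy of Psme2 whose reads may be shared with it, had 17.5, 19.2 and 26.3 CPM in XCKO, against 9.43, 16.5 and 16.6 CPM in XCON. Its groups did not overlap, and its log2 fold change of 0.56 ± 0.25 (SE) did not pass (edgeR adjusted p = 0.17). The 4 pseudogene rows left out by name held 2 reads in all 6 libraries together.

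Proteasome genes without a Psm name were divided in the same comparison. Of 8 tested (9 listed), 1 was higher, 0 lower and 7 did not pass, against 5.21% of all genes called higher and 4.05% called lower. Sem1 (RPN15), a small lid subunit, had 28.5, 28.1 and 36.7 CPM in XCKO, against 19.7, 16.4 and 17.5 CPM in XCON, with a log2 fold change of 0.80 ± 0.16 (SE) and an adjusted p of 0.022 in edgeR's test. It did not pass without XCKO 3 (adjusted p = 0.064), XCON 2 (0.059) or XCON 3 (0.062). Adrm1 (RPN13), a ubiquitin receptor of the cap, had 59.1, 65.1 and 59.1 CPM in XCKO, against 46.7, 39.4 and 49.0 CPM in XCON, and did not pass (log2 fold change 0.44 ± 0.14 SE, adjusted p = 0.083). Pomp, the chaperone that closes core assembly, had a log2 fold change of 0.42 ± 0.17 (SE) and did not pass. In 4 of the 8, Sem1, Adrm1, Pomp and Ube3c, every XCKO library lay above every XCON library, against 17.6% of all tested genes. In Usp14 every XCKO library lay below, at 27.7, 27.2 and 31.1 CPM, against 32, 31.6 and 33.1 CPM in XCON, where 18.1% of all genes did. The deubiquitinases that dock on the cap, Usp14 and Uchl5, had −0.17 ± 0.13 and −0.20 ± 0.20 (SE).

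The genes for the related transcription factors NRF1 and NRF2 had fold changes of opposite sign. Of 7 genes for NRF1, NRF2, the NRF1-processing enzymes and the small Maf partners, 0 were higher, 1 lower and 6 did not pass. Among all genes tested, 5.21% were called higher and 4.05% lower. Nfe2l2, which encodes NRF2, the factor of the antioxidant response, fell to 83.1, 87.9 and 72.1 CPM in XCKO, against 164, 131 and 121 CPM in XCON. Every XCKO library lay below every XCON library, and the log2 difference was −0.77 ± 0.17 (SE), with an edgeR adjusted p of 0.030, and of 0.050 to 0.10 in the 6 fits that left out 1 library. Nfe2l1, which encodes NRF1, had 208, 210 and 161 CPM in XCKO, against 108, 139 and 121 CPM in XCON. The groups did not overlap, and its log2 fold change of 0.65 ± 0.18 (SE) had an edgeR adjusted p of 0.054, and of 0.047 with median-of-ratios size factors. With library totals it was 0.40 (edgeR adjusted p = 0.19). In the 6 fits that left out 1 library Nfe2l1 did not pass (edgeR adjusted p of 0.067 to 0.14). The FPKM of Nfe2l1 was 1.74, 1.67 and 1.55 times that of Nfe2l2 in XCKO, against 0.461, 0.742 and 0.697 times in XCON. XCKO 3, highest in every core gene, was the lowest of the XCKO libraries in both of these genes. Ddi2 and Ngly1, whose products cut and deglycosylate NRF1, had log2 fold changes of 0.04 ± 0.21 and 0.32 ± 0.16 (SE).

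Promoter sequences are shown for genes on either side of the division between core and cap. In RefSeq's windows on GRCm38.p6, from 250 bases before to 50 after the start, 37 of the 45 genes had an entry. The motif TGACNNNGC, the core of the antioxidant response element to which NRF1 and NRF2 bind, was searched on both strands. It was found in 6 of the 37 genes, or 16.2%, against 14% of the 27025 genes with such a window. The 6 were Psmb5, Psmb6, Psmd9, Psmc6, Psmd12 and Psme4. The match began at −47 in Psmb5 and −31 in Psmd9, both called, and at −9 in Psmb6, −7 in Psme4, −227 in Psmc6 and −247 in Psmd12, none of them called. These positions are counted from RefSeq's starts. For Psmd9 that start lies inside the span of the counted gene, which begins upstream at 123169413, so the 2 starts differ. Capitals mark the match, and each run is in the direction of the gene, at chr14:54618009-54618067, chr5:123228134-123228189, chr11:70525323-70525356 and chr14:45329574-45329630, with Psmb5 on the minus strand and the others on the plus strand.
Psmb5: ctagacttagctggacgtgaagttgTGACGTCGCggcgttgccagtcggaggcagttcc
Psmd9: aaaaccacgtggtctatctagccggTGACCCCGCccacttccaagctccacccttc
Psmb6: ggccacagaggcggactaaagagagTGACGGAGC
Psmc6: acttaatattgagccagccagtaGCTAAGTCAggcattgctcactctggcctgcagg

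The motif CCGGAAG, bound by ETS factors, was found on either strand in 9 of 14 cap genes, or 64.3%, in 1 of 11 core genes, or 9.09%, and in 9.93% of all genes with a window. Among the 9 cap genes were Psmc1, Psmd2 and Psmd4, whose windows at chr12:100110149-100110201 and chr16:20651601-20651651 on the plus strand and chr3:95042708-95042764 on the minus strand are printed with the match in capitals.
Psmc1: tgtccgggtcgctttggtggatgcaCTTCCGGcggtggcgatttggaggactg
Psmd2: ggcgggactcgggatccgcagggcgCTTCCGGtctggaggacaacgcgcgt
Psmd4: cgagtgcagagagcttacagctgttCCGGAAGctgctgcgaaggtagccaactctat
The single core gene was Psma6, in 1 of its 2 listed windows. The motif CCAAT, bound by NF-Y, was found in 6 of 11 core genes and 4 of 14 cap genes, against 41.1% of all genes. CCACG, a part of the ER stress element to which XBP1 can bind, was likewise found in 6 of 11 core genes and 4 of 14 cap genes, against 35.5% of all genes. No matches of different motifs shared bases in these windows. A match is a description of the sequence, not a site shown to be bound.

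The authors' deposited table gave Psmb5 a log2 fold change of 0.88 with an adjusted p of 0.00034, Psmb7 0.88 with 0.0025 and Psmd9 0.58 with 0.017. In the authors' deposited table Psmb4 (0.72, adjusted p = 0.012), Psma5 (0.62, adjusted p = 0.047) and Psmd13 (0.58, adjusted p = 0.042) were also under 0.05. Not given in the sources used here was the tool behind these values.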

How the data were processed

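RNA-seq libraries of hepatocytes (3 XCKO, 3 XCON) were used. Per the labels' protocols, Trizol served for extraction and a NEBNext Ultra kit for the libraries. The names Bowtie 0.12.2, mm10 and mm8 appear, without roles, in the submitters' processing notes. Not given in the sources used here are the counter and its strand setting. The authors deposited raw read counts per Ensembl gene, FPKM values, a signal column of mean scaled counts for each group, log2 fold changes and p-values. Of the 45 members, 44 had the same coordinates in GENCODE M21 (GRCm38, mm10).

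Counts were tested with edgeR 4.0.16 (R 4.3.3): filterByExpr at its defaults, TMM scaling, robust quasi-likelihood F test on group over all 6 libraries, Benjamini-Hochberg adjustment over all 14873 genes, threshold 0.05. Standard errors are the log2 fold change over the square root of F. The biological coefficient of variation was 25.8%. Mean log2 CPM used a prior count of 2. Members, lists and tests were chosen with earlier results of these data known. Given in full are members past 0.05, Psmb5, Psmb6, Psmb7, Psmd4, Psmd14, the smallest p of each group without a call and the highest and lowest of core and cap. Other members are in brief, except Psmb4 and Psma7, given with their libraries after their values were seen. Of related lists, up to 3 genes each are given, with Usp14, Uchl5, Ube3c and Ddi2 chosen after their values were seen. Paaf1 was not matched. A further list of related genes is not reported here. Alternatives were other scalings and filters, the replicate number as a block, DESeq2 1.42.0, limma 3.58.1 on voom weights or log2 FPKM with pseudocounts of 1 and 0.1, an offset for gene length (lowess, span 0.3) and each library left out. The edgeR step was tested on simulated data.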

Additional observations from a re-analysis of the deposited data

How the results depend on the processing

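In all 17 alternatives 0 members were lower. With library totals as the scaling, 1 member was higher (1 core, 0 chaperones or other caps), the medians were 0.12 (core), −0.16 (cap) and −0.31 (all genes), and 326 genes were higher and 2032 lower. Of the 43 members, 20 then lay above 0 and 40 above the median of all genes, which was also 40 with TMM. With no filter on low counts, 7 of 44 members were higher (5 core, 1 cap), with 1185 and 975 genes higher and lower, or 8.12% of 26604. DESeq2 gave 7 of 43 members (4 core, 1 cap, 2 chaperones or other caps), with 1415 and 1238 genes, or 17.8% of 14873. Limma on log2(FPKM + 1) with no filter gave 0 members, 0 core genes, 0 chaperones or other caps, and 17 and 10 genes, with Xbp1 at −2.12, not passing (adjusted p = 0.070). The other FPKM fits called 335 (pseudocount 1) and 289 (0.1) genes lower. The cause was not tested.

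With 1 library left out, 0 to 2 members, 0 to 2 core genes, 0 cap genes and 0 chaperones or other caps were higher, 178 to 523 genes were higher and 131 to 287 lower, and the medians were 0.29 to 0.51 (core) and 0.03 to 0.18 (cap). Core minus cap was 0.22 to 0.34, and Xbp1 −2.47 to −2.0. The fits without 1 library have fewer samples.

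Same-numbered XCKO and XCON libraries had deviations correlated at 0.055, 0.076 and −0.168, and not every library correlated best with its own number. Correlations this weak, over 3 libraries per group, cannot decide whether the numbers pair the samples. With the replicate number as a block, 2 members were higher, 0 of them chaperones or other caps, and 220 and 102 genes were higher and lower.

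Signs near 0 turned for genes that were never called. Psmd14 became 0.02 (size factors, no filter, replicate block, DESeq2, limma-voom), 0.05 (each FPKM fit) and −0.17 to 0.13 without 1 library (above 0 in 4 of 6). Psmd4 became −0.24 (library totals), −0.03 (filter of 5 CPM), −0.04 (length) and −0.10 to 0.15 without 1 library (−0.10 without XCON 2). Psmb2 became −0.17 (library totals) and −0.13 (length), Psmf1 −0.04 (library totals), Psmd11 −0.28 to 0.01 without 1 library (0.01 without XCON 3) and Psmb8 −0.15 (library totals) and −0.12 (without XCKO 3).

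Libraries number 3 per group, which limits what single genes can show.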
